A study of Homo sapiens with 4 samples.

Results

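The PAX family comprises 9 transcription factor genes, PAX1 to PAX9, and its members were followed through RNA-seq libraries of NT2 cells. The family was chosen by the symbols of its members among the 62696 genes of the deposited count tables. It was selected on a measured value, because PAX6 had no count in the empty vector library and was present in every other library, so the differences of the members from that library are given as a description and carry no test. NT2, also called NTERA-2, is an established human embryonal carcinoma cell line with the traits of pluripotent cells. Of the 4 libraries, 1, called the control here, came from cells labelled wild type that carried an empty vector, and 3 came from cells labelled as a knockdown of HYDIN2, a partial copy of the motile cilia gene HYDIN that the annotation classes as a transcribed pseudogene. All 4 share the cell line and the culture medium. The labels do not say how the knockdown was made, which clone or construct each library came from, or whether the 3 replicates were separate cultures, so their spread may be technical. Inside the files, the headers of the count columns read LacZ control and GKAP_KIF27 set, which is at odds with HYDIN2 in the labels.

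The libraries held between 25181737 counts (control) and 62904698 counts (replicate 1 of the labelled knockdown), and replicate 3 had 28552070. Levels are given as CPM, usual units for a count relative to its TMM-scaled library total, and their 95% intervals cover counting error only. The labelled target, HYDIN2, had 0.50 CPM in the control, 2.41 CPM in replicate 1, 1.88 CPM in replicate 2 and 0.352 CPM in replicate 3, so none of the 3 was lower by more than counting error and they are called labelled knockdowns throughout. Replicate 3 stood apart from the other replicates. Of 15880 genes with a mean CPM of at least 1, 0.302% lay 2-fold or more apart between replicates 1 and 2, against 21.6% between replicates 1 and 3 and 22.9% between replicates 2 and 3. All 10 embryonal carcinoma markers, among them POU5F1, NANOG and SOX2, had counts in every library. Their summed level was 7040 CPM in the control and 7058, 7291 and 4159 CPM in replicates 1, 2 and 3. Most of this sum was LIN28A and DPPA4, so it does not describe each marker.

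PAX proteins bind DNA through the paired domain that gives the family its name, and some carry a homeodomain as well. They act in the embryo, where each subfamily sets up particular organs and tissues. PAX6 and PAX4 work in the eye, the forebrain and the pancreatic islets, and PAX3 and PAX7 in the neural crest and in muscle precursors. PAX2, PAX5 and PAX8 act in the kidney, the midbrain boundary, B lymphocytes and the thyroid, and PAX1 and PAX9 in the vertebral column, the thymus and the teeth. Embryonal carcinoma cells resemble cells of the early embryo and can be driven towards neural fates, in which PAX6 is a classic early marker.

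The shared part of the coding sequence is shown first, because reads can be assigned to a member only where its sequence differs from the other members. The following lines give 60 coding bases of PAX6 from the region that encodes the paired domain, and the best ungapped match in each other member, read 5′ to 3′ from GENCODE 29 transcripts. Capitals mark the bases that differ from PAX6.
PAX6: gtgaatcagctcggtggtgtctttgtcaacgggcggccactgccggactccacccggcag
PAX4: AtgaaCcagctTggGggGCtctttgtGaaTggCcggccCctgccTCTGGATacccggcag
PAX3: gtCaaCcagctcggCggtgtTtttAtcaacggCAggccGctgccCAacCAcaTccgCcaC
PAX7: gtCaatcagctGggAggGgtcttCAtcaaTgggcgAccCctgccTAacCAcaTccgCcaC
PAX2: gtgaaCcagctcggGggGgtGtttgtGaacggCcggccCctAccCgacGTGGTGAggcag
PAX5: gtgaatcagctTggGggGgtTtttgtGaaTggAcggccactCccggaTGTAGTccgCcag
PAX8: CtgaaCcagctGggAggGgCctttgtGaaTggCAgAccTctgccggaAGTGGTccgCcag
PAX1: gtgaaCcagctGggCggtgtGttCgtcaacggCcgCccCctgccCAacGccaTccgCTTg
PAX9: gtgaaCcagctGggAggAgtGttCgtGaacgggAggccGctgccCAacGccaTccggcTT

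The stretch covers coding bases 22 to 81 of PAX6. PAX1, PAX3, PAX5 and PAX9 matched it at 75.0% of the bases, PAX2 and PAX7 at 73.3%, PAX4 at 71.7% and PAX8 at 68.3%. Over the whole coding sequences, the longest run of identical bases between any pair of members was 33 nt, between PAX3 and PAX7. The longest run that PAX6 shared with another member was 16 nt, with PAX3. The differences are spread over the stretch, so even here no member is a near-identical copy of another. The strand and multi-mapping settings of the counting are not given in the sources used here.

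The sequences upstream of PAX6, PAX5, PAX3 and PAX8 are shown because these 4 members passed the minimum level described below and differed in pattern over the libraries. Each line gives the 250 bases before the most upstream RefSeq start on GRCh38.p14, read in the direction of transcription. The letters of 4 searched motifs, on either strand, are in capitals. The PAX6 bases lie at chr11:31817962-31818211, those of PAX5 at chr9:37034269-37034518, those of PAX3 at chr2:222298999-222299248 and those of PAX8 at chr2:113278922-113279171, all on the minus strand.
PAX6: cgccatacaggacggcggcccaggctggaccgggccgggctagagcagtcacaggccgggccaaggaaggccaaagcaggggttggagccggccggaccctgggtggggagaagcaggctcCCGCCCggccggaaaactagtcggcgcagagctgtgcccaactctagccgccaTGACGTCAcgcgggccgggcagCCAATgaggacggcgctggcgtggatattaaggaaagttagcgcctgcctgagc
PAX5: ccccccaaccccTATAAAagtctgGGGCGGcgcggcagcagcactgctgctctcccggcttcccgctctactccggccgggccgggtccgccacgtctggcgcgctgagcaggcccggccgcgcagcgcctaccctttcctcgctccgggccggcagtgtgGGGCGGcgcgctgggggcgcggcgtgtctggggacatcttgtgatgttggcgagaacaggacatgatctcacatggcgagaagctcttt
PAX3: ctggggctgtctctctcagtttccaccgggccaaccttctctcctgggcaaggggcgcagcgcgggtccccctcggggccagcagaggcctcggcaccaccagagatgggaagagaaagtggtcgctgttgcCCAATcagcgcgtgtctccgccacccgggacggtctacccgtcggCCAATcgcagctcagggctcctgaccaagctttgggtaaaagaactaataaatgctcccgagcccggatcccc
PAX8: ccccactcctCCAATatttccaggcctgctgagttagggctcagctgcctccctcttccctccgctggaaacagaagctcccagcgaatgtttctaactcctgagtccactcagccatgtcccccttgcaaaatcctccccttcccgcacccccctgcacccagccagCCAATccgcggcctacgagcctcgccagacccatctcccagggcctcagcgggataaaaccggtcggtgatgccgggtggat

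The TATA box was searched as TATAAA and the CCAAT box by the letters of its name. The letters of the cyclic AMP response element were TGACGTCA, and those of the GC box were GGGCGG. Matches of different motifs did not overlap in these 4 sequences. PAX6 held 1 GC box, 1 cyclic AMP response element and 1 CCAAT box, and PAX5 held 1 TATA box and 2 GC boxes. PAX3 and PAX8 each held 2 CCAAT boxes. Among 35116 RefSeq windows of 300 bases, 11.5% held the TATA box, 34.6% the CCAAT box, 1.85% the cyclic AMP response element and 45.0% the GC box. In windows of that length, GC content was 65.0% for PAX5, 64.7% for PAX6 and PAX3 and 62.0% for PAX8, beside a median of 58.7% over all windows. PAX5 had 30 CpG dinucleotides in its window, PAX6 24, PAX3 21 and PAX8 13, beside a median of 14. Windows were found for 8 of the 9 members, and PAX6 had 9 annotated starts, which counts per gene cannot tell apart. Over the 9 PAX6 windows, GC content ran from 47.3% to 68.7% and CpG dinucleotides from 5 to 32. The cyclic AMP response element was in the most upstream PAX6 window alone, the one described here. A match describes the letters and not a bound site.

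Summed over its members, the family peaked in replicates 1 and 2, where PAX5 and PAX6 made up most of the sum. The other members did not share this pattern as a set. PAX8 stayed near the control there, PAX1 lay below it, and PAX2, PAX3 and PAX7 peaked in replicate 3. The summed level of the 9 members was 14.5 CPM in the control, 47.5 CPM in replicate 1, 43.4 CPM in replicate 2 and 15.5 CPM in replicate 3. As shares of CPM, not corrected for length, PAX5, the B lymphocyte member, made up 62.8% of that sum in the control and 55.4%, 56.2% and 34.0% in replicates 1, 2 and 3. PAX6 made up none of it in the control and 32.4%, 30.3% and 19.0% in the labelled knockdown replicates. Counts were found for 5 of the 9 members in the control, and for 9, 8 and 8 members in replicates 1, 2 and 3. Over all genes, 29735 had a count in the control and 35389, 34545 and 33206 in replicates 1, 2 and 3. PAX2, PAX4 and PAX7, at 0 in the control, had at most 18 counts, and nothing is read from the number of members. In bulk RNA, fewer cells of a type and less RNA per cell cannot be told apart.

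**Figure D1:**
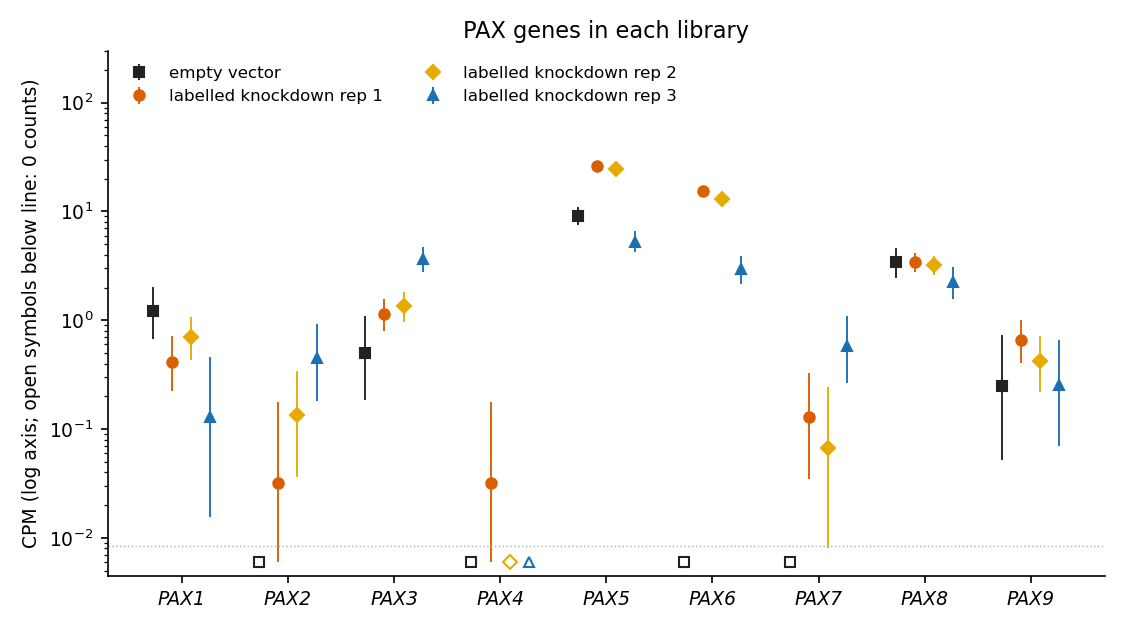
Level of each PAX gene in each library in CPM on a log axis, with 95% counting intervals; open symbols below the dotted line stand for 0 counts. PAX6 has 0 counts in the control and 2.95 to 15.4 CPM in the 3 labelled knockdown libraries, and PAX5 and PAX6 are both lower in replicate 3 than in replicates 1 and 2.

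PAX6 (ENSG00000007372.25, chr11:31784779-31818062, minus strand of GRCh38 in GENCODE 29) had 0 counts in the control and 957, 784 and 92 counts in replicates 1, 2 and 3. In CPM these were 15.4 (14.0 to 16.8), 13.1 (11.9 to 14.5) and 2.95 (2.16 to 3.93), with a mean of 10.5 ± 6.62 CPM (SD, n = 3). The control therefore lay below every labelled knockdown library, which is the pattern on which the gene was chosen. With counts halved as for every interval here, 0 counts in the control allow up to 0.307 CPM. The lower 95% limits of the ratio to the control were then 49.8, 42.5 and 9.20 in replicates 1, 2 and 3. A floor of 3 counts in the control, 0.125 CPM with no halving, would give higher values of 123-fold, 105-fold and 23.6-fold. These are not lower limits. At the level of replicate 3, the lowest of the labelled knockdowns, the control would have held 70.7 counts of PAX6.

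Replicate 3 departed from replicates 1 and 2 in PAX6 itself. Its level in replicate 1 was 5.22 times that in replicate 3 (3.85 to 7.23), and its level in replicate 2 was 4.46 times that in replicate 3 (3.28 to 6.19). The mean log2 difference of PAX6 from the control, with a prior count of 2 that sets the value where the control is 0, was 8.43 without replicate 3. PAX6 binds DNA with both a paired domain and a homeodomain, and PAX4 is its subfamily partner in the islet. PAX4 (ENSG00000106331.18, chr7:127610292-127618114) had 2 counts in replicate 1 and 0 in the other 3 libraries, so no fold is given.

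PAX5 (ENSG00000196092.14, chr9:36833275-37034185) directs B lymphocyte commitment and marks the midbrain boundary in the embryo. It had 218 counts in the control and 1638, 1454 and 165 in replicates 1, 2 and 3, or 9.08 CPM against 26.3, 24.4 and 5.28 CPM. Replicates 1 and 2 lay above the control and replicate 3 below it, so the labelled knockdown libraries enclosed the control. The ratios to the control were 2.90 (2.37 to 3.57), 2.68 (2.19 to 3.31) and 0.582 (0.432 to 0.781). Each interval excluded 1, in opposite directions, and compares a pair of libraries, not conditions. The mean log2 difference was 0.72 ± 1.30 (SD, n = 3), smaller than its spread. Without replicate 3 it was 1.43 and PAX5 passed the 2-fold rule as higher. Without replicate 1 or replicate 2 it was 0.30 or 0.37, and PAX5 was not called. With a trend on transcript length removed it was 0.15, and PAX5 was not called either.

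PAX5 and PAX6 kept nearly the same proportion to each other in the 3 labelled knockdown libraries, although both were much lower in replicate 3. The counts of PAX5 divided by those of PAX6 gave 1.71, 1.85 and 1.79 in replicates 1, 2 and 3, with intervals of 1.53 to 1.92, 1.64 to 2.10 and 1.24 to 2.63. The mean was 1.79 ± 0.0717 (SD, n = 3), and the intervals overlapped. In the control, with 218 counts of PAX5 and 0 of PAX6, the lower 95% limit of the ratio was 29.1. The control thus had PAX5 without detected PAX6, and the labelled knockdown libraries had both. The PAX5 level in replicate 1 was 4.98 times that in replicate 3 (3.97 to 6.32), and in replicate 2 it was 4.61 times (3.67 to 5.86).

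PAX2 and PAX8 are the other members of the PAX5 subfamily. PAX8 (ENSG00000125618.18, chr2:113215997-113278950), which acts in thyroid and kidney, had 82 counts in the control and 212, 192 and 70 in replicates 1, 2 and 3. These were 3.42 CPM against 3.40, 3.22 and 2.24 CPM. The ratios to the control were 0.997 (0.689 to 1.47), 0.942 (0.647 to 1.39) and 0.656 (0.406 to 1.06), and every interval included 1. PAX8 had the smallest mean log2 difference in size among the 4 members past the minimum level, -0.23 ± 0.32 (SD, n = 3).

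PAX2 (ENSG00000075891.23, chr10:100735603-100829941), a regulator of kidney and optic development, had 0 counts in the control and 2, 8 and 14 in replicates 1, 2 and 3. The lower 95% limit of its ratio to the control was 1.11 in replicate 3, where it reached 0.448 CPM, and 0.265 in replicate 2. Its level in replicate 3 was 3.34 times that in replicate 2, with an interval of 0.850 to 15.6 that included 1.

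PAX3 (ENSG00000135903.20, chr2:222199888-222298996) specifies neural crest and migrating muscle precursors. It had 12 counts in the control and 71, 80 and 114 in replicates 1, 2 and 3. These were 0.50 CPM (0.183 to 1.09) against 1.14 (0.796 to 1.58), 1.34 (0.957 to 1.82) and 3.65 CPM (2.76 to 4.73). All 3 labelled knockdown libraries lay above the control, and replicate 3 above the others. The ratios to the control were 2.28 (0.951 to 6.63), 2.68 (1.13 to 7.74) and 7.30 (3.16 to 20.7), so the interval of replicate 1 included 1. Its level in replicate 3 was 3.20 times that in replicate 1 (2.07 to 5.01) and 2.72 times that in replicate 2 (1.79 to 4.19). The mean log2 difference was 1.74 ± 0.89 (SD, n = 3). Without replicate 3 it was 1.20 and PAX3 was not called. The fold was not the reason, since its ratios in replicates 1 and 2 were both over 2. PAX3 then fell below the minimum level, which 3 members passed in place of 4.

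PAX7 (ENSG00000009709.12, chr1:18631006-18748866), known for muscle satellite cells, was also highest in replicate 3, at lower counts. It had 0 counts in the control and 8, 4 and 18 in replicates 1, 2 and 3, up to 0.576 CPM. The lower 95% limit of its ratio to the control was 1.52 in replicate 3, and below 1 in replicates 1 and 2, at 0.255 and 0.0755. The PAX7 level in replicate 3 was 4.48 times that in replicate 1 (1.25 to 19.9) and 8.60 times that in replicate 2 (1.78 to 81.8). PAX3 and PAX7 thus were highest in replicate 3, where PAX5 and PAX6 were lowest among the labelled knockdowns.

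PAX1 (ENSG00000125813.15, chr20:21705659-21718486), a regulator of the vertebral column and thymus, had 29 counts in the control and 26, 42 and 4 in replicates 1, 2 and 3. These were 1.21 CPM against 0.418, 0.704 and 0.128 CPM. Every labelled knockdown library lay below the control. The ratios were 0.346 (0.151 to 0.786), 0.582 (0.284 to 1.23) and 0.106 (0.0117 to 0.459), and the interval of replicate 2 included 1. The mean log2 difference was -1.68 ± 1.08 (SD, n = 3). PAX1 was below the minimum level and was not called at any minimum tried.

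PAX9 (ENSG00000198807.13, chr14:36657568-36679715), needed for teeth and pharyngeal pouches, had 6 counts in the control and 41, 25 and 8 in replicates 1, 2 and 3. The ratios were 2.63 (0.784 to 13.8), 1.68 (0.456 to 9.21) and 1.02 (0.173 to 6.99). All 3 intervals included 1, and a difference was not detectable at these counts.

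**Figure D2:**
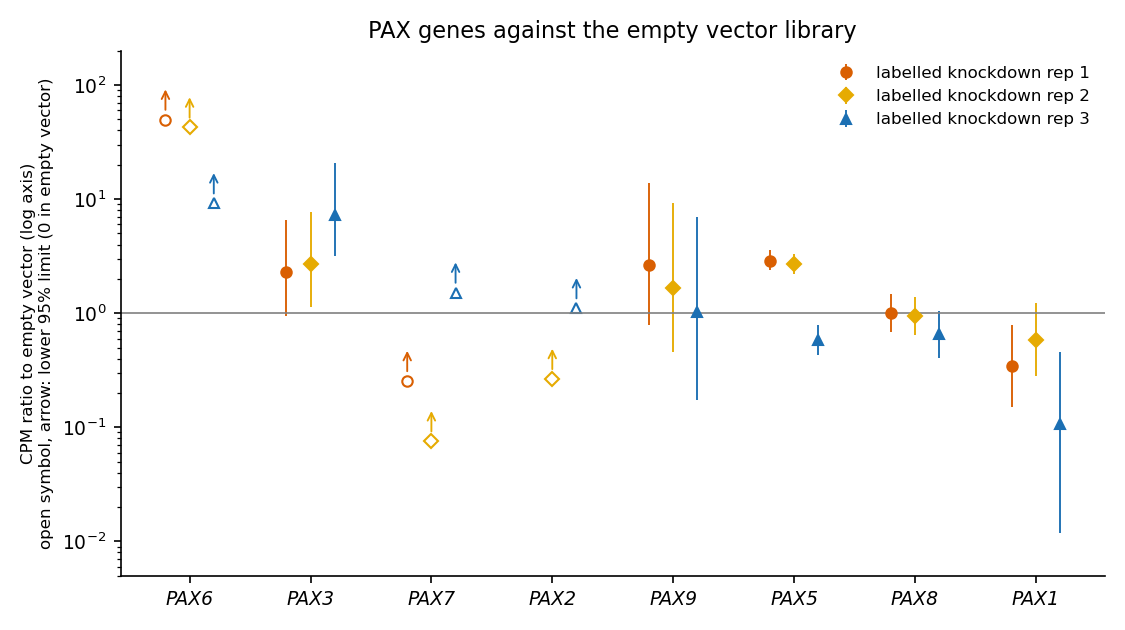
CPM of each PAX gene in the 3 labelled knockdown libraries divided by CPM in the control, on a log axis with 95% counting intervals; open symbols with arrows are lower 95% limits for genes with 0 counts in the control and over 3 in the other library. The limits of PAX6 lie at 9.20 to 49.8, the intervals of PAX8 include 1, and PAX5 above 1 in replicates 1 and 2 and at 0.582 in replicate 3.

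By the rule of at least 2-fold in the same direction in each labelled knockdown library, 4 of the 9 members passed the minimum mean CPM of 1, namely PAX3, PAX5, PAX6 and PAX8, and PAX3 and PAX6 were called higher. The whole table gave 3.65% higher and 2.72% lower among 15880 genes, and nothing is read from the members' count since PAX6 was chosen on this contrast. With a minimum of 0.1 CPM, 8 members entered and 3 were called higher, PAX7 being added, beside 6.04% higher and 3.89% lower in the whole table. PAX4 was the member below that minimum. edgeR's quasi-likelihood test over 26029 genes, with Benjamini-Hochberg adjustment, called 0 genes, which is 0% of those tested, and 3023 genes had an unadjusted p under 0.05. DESeq2 called 271. Both set 1 library against 3, so no p-value is given for a member.

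Per length, dividing CPM by the longest annotated transcript in kb, the order of the members was taken from the mean of the labelled knockdown libraries. This mean was 2.16 ± 1.35 for PAX5, 1.44 ± 0.909 for PAX6, 0.711 ± 0.150 for PAX8 and 0.645 ± 0.440 for PAX3 (SD, n = 3). PAX9 followed at 0.0985 ± 0.0448 and PAX1 at 0.0778 ± 0.0538, then PAX2 at 0.0495 ± 0.0524, PAX7 at 0.0464 ± 0.0502 and PAX4 at 0.00485 ± 0.00841. In this order, PAX3 and its next neighbour, PAX9, stood apart by more than the spread of either. The other neighbouring pairs differed by less than the larger of their spreads. In the control the order of the level per kb was PAX5 at 1.05, PAX8 at 0.823, PAX1 at 0.226, PAX3 at 0.158 and PAX9 at 0.0554, with PAX2, PAX4, PAX6 and PAX7 at 0. The order of the labelled knockdown means was carried by replicates 1 and 2. In replicate 3, PAX3 was highest at 1.15, followed by PAX5 at 0.613, PAX8 at 0.540 and PAX6 at 0.404.

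The genes around PAX6 were compared next, since many lie on the same stretch of chromosome 11. ELP4, a subunit of the Elongator complex, overlaps PAX6 by 5550 nt on the opposite strand. It had 28.6 CPM in the control and 23.8, 25.7 and 21.7 CPM in replicates 1, 2 and 3, with log2 differences of -0.26, -0.15 and -0.39. ELP4 counts are summed over the whole gene and do not describe the part that overlaps PAX6. PAUPAR, a noncoding transcript that overlaps PAX6 by 5756 nt on the opposite strand, had 0 counts in the control and 36, 28 and 4 in replicates 1, 2 and 3. Its 4 libraries had the order of PAX6. The kit marks strand, but the strand setting of the counting is not given in the sources used here, so PAUPAR counts from PAX6 RNA cannot be told apart from its own.

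Further along the chromosome, DCDC1, a doublecortin family gene whose start lies 448 kb downstream of the PAX6 start, had 0.625 CPM in the control and 2.36, 2.04 and 1.70 CPM in replicates 1, 2 and 3. MPPED2, 1231 kb downstream, had 3.00 CPM against 7.56, 7.09 and 8.39 CPM. Both were called higher, with log2 differences of 1.84, 1.64 and 1.38 for DCDC1 and 1.32, 1.23 and 1.47 for MPPED2, beside the 3.65% of the whole table. Unlike PAX6, neither was several-fold lower in replicate 3 than in replicates 1 and 2. DNAJC24, whose start lies beside that of DCDC1, had log2 differences of 0.16, 0.14 and -0.03.

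The remaining neighbours were not called. IMMP1L had log2 differences of 0.73, 0.67 and -0.09 in replicates 1, 2 and 3, and RCN1 0.31, 0.16 and -0.08. WT1, a kidney and gonad regulator upstream of PAX6, lay just outside the rule with differences of -0.99, -1.33 and -1.11. EIF3M, a translation initiation subunit, had differences of -0.53, -0.37 and -1.23. CCDC73 had 0, 4, 2 and 0 counts. Among the 9 coding neighbours, 2 were therefore called higher and 0 lower, and CCDC73 was the 1 without counts in the control.

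**Figure D3:**
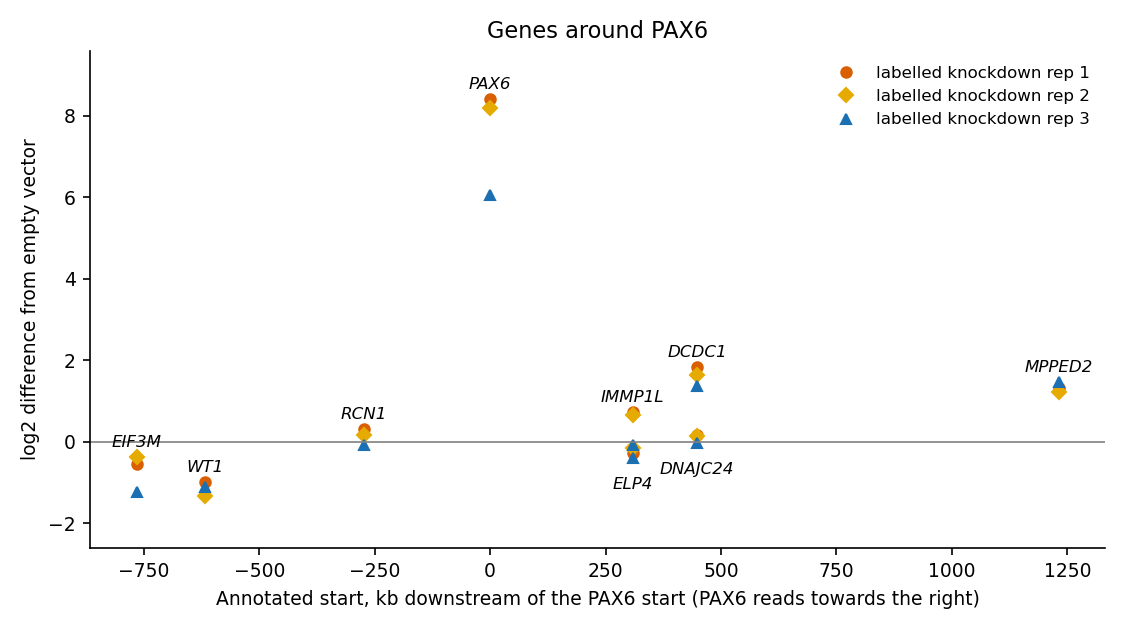
Log2 difference from the control against the distance of each gene's annotated start from the PAX6 start in kb, for genes past the minimum level, with 1 symbol per labelled knockdown library. PAX6 stands at 6.05 to 8.42 and its neighbours between -1.33 and 1.84.

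Overlapping transcripts at the other members were also read. PAX8-AS1, an antisense transcript that overlaps PAX8 by 60585 nt, had 37.4 CPM in the control and 32.1, 31.3 and 39.5 CPM in replicates 1, 2 and 3. Per length it stood above PAX8 in every library, at 3.17 CPM per kb in the control against 0.823 for PAX8. Its log2 differences were -0.22, -0.26 and 0.08, and it was not called. SLC25A21, a mitochondrial carrier that overlaps PAX9 by 1285 nt on the opposite strand, had 8 counts in the control and 121, 99 and 32 in replicates 1, 2 and 3. The antisense or embedded genes annotated at PAX3 and PAX5 had at most 4 counts in any library.

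Genes known to work with PAX proteins or downstream of them were followed in 8 lists with 105 genes in all, each gene counted once. Of these, 58 passed the minimum level, 6 were called higher and 1 lower, beside 3.65% higher and 2.72% lower in the whole table. Their median mean log2 difference was 0.38, beside -0.02 over all 15880 genes. The lists are described by these counts and medians alone.

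A network of homeobox factors and their EYA and DACH partners acts with PAX6 in the eye field. Of 12 genes, 7 passed the minimum and none was called in either direction, with a median of 0.31. SIX4 had 41.6 CPM in the control and 55.4, 52.0 and 47.4 CPM in replicates 1, 2 and 3, and its mean log2 difference turned to -0.03 when a trend on transcript length was removed. EYA3, a phosphatase and coactivator, had 111.0 CPM in the control, 107.5 and 110.0 CPM in replicates 1 and 2 and 212.8 CPM in replicate 3. Replicates 1 and 2 lay near the control and replicate 3 above it.

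Among 17 eye field and optic regulators, 6 passed the minimum, 2 were called higher and 0 lower, with a median of 0.83. TBX3, a T-box repressor of the eye field, had 10.3 CPM in the control and 33.8, 30.1 and 84.4 CPM in replicates 1, 2 and 3. MITF, the regulator of pigment cells that PAX3 and PAX6 are known to act on, had 1.75 CPM against 10.1, 8.39 and 3.68 CPM. Both lay above the control in every library, TBX3 with its highest value in replicate 3 and MITF with its lowest labelled knockdown value there. With the trend on transcript length removed, 1 of the list was called.

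Of 16 reported PAX6 targets, 9 passed the minimum and 0 were called in either direction, with a median of 0.62. Without replicate 2 or without replicate 3, 2 genes of the list were called. PROX1 and EOMES, described under other observations, are also in this list and stood above the control in every labelled knockdown library. TFAP2C, an AP-2 factor, had 83.4 CPM in the control and 180.4, 174.2 and 67.4 CPM in replicates 1, 2 and 3. It thus stood above the control in replicates 1 and 2 and below it in replicate 3, as PAX5 did. SFRP2, a secreted Wnt modulator, had 482.3 CPM against 248.3, 266.5 and 275.0 CPM, lower in every labelled knockdown library by less than the 2-fold of the rule. The lens crystallin CRYAA and the islet hormone gene GCG had 0 counts in all 4 libraries.

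Of 14 neural crest and muscle genes around PAX3 and PAX7, 10 passed the minimum, 2 were called higher and 0 lower, with a median of 1.04. TFAP2A, which specifies neural crest, had 4.54 CPM in the control and 15.1, 13.6 and 70.3 CPM in replicates 1, 2 and 3. Like PAX3, it was highest in replicate 3. SOX9, a neural crest and cartilage factor, had 4.42 CPM against 14.3, 12.3 and 15.3 CPM, with a mean log2 difference of 1.65 ± 0.16 (SD, n = 3). Its 3 labelled knockdown values lay close together and all above the control.

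Of 14 kidney and thyroid genes around PAX2 and PAX8, 8 passed the minimum, 0 were called higher and 1 lower, with a median of 0.11. SLC5A5, the iodide transporter that PAX8 is known to activate in the thyroid, had 2.87 CPM in the control and 0.803, 0.586 and 0.0640 CPM in replicates 1, 2 and 3. GATA3 had 18.5 CPM against 38.2, 35.3 and 71.3 CPM, and SALL1 had 139.3 CPM against 238.9, 233.5 and 325.5 CPM. These last genes stood above the control in every library and missed the rule in at least 1 of them.

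The lists around the remaining members had few expressed genes. Of 7 sclerotome and pharyngeal genes around PAX1 and PAX9, 3 passed the minimum and 0 were called in either direction, with a median of 0.18. NKX3-2 had 10.7 CPM in the control and 10.9, 10.8 and 14.9 CPM in replicates 1, 2 and 3, while FOXC2 had 4.50 CPM against 18.1, 16.4 and 2.85 CPM. FOXC2 thus lay above the control in replicates 1 and 2 and below it in replicate 3. Of 12 B cell and islet genes around PAX5 and PAX4, 3 passed and 0 were called in either direction, with a median of 0.19. EBF1, a B cell factor, had 5.50 CPM against 9.04, 8.78 and 8.42 CPM, and RAG1, a recombinase gene, had 14.9 CPM against 17.6, 17.0 and 16.5 CPM. The 9 genes of this list below the minimum level included CD79A, which PAX5 is known to activate in B cells.

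Of 13 PAX cofactors, 12 passed the minimum, 2 were called higher and 0 lower, with a median of 0.12. KMT2D, a histone methyltransferase brought to DNA by PAX proteins through PAXIP1, had 99.7 CPM in the control and 252.3, 228.1 and 527.8 CPM in replicates 1, 2 and 3. HIPK2, a kinase known to phosphorylate PAX6, had 29.5 CPM against 84.4, 77.4 and 122.3 CPM. With the trend on transcript length removed, their mean log2 differences were 0.70 and 0.80 and neither was called. Log2 differences from the control correlated with transcript length across genes, with Spearman's rho of 0.347, 0.298 and 0.460 in replicates 1, 2 and 3. The genes used were those past the minimum with a matched transcript length, which share their libraries and are not independent. The part of length in these differences was not tested further.

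**Figure D4:**
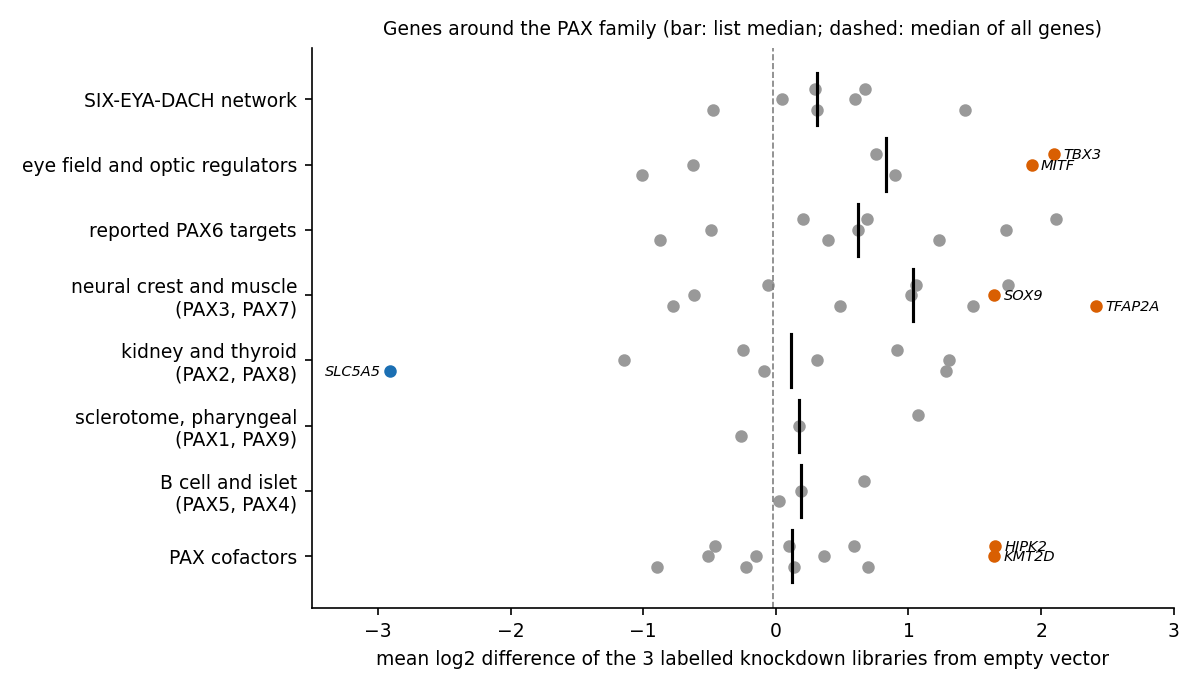
Mean log2 difference of the 3 labelled knockdown libraries from the control for genes of the 8 lists that passed the minimum level; each point is a gene, orange is called higher, blue is called lower, a black bar is the list's median and the dashed line is the median of all genes. The 6 genes called higher are labelled in 3 lists, and SLC5A5 is the 1 called lower.

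The genes whose profile over the 4 libraries was nearest to PAX6 were found by Euclidean distance on log2 CPM centred on each gene's mean. They were MMP1 at a distance of 2.30, SLITRK6 at 2.62, SCN3B at 2.91, TNXB at 3.57 and MYOCD at 3.59 on the log2 scale. MMP1, a secreted collagenase, had 0 counts in the control and 997, 835 and 14 in replicates 1, 2 and 3. SLITRK6, a neuronal membrane protein gene, had 0 counts and then 192, 175 and 6. Both were further reduced in replicate 3 than PAX6 was.

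SCN3B, a sodium channel subunit gene, had 0.625 CPM in the control and 19.2, 17.9 and 5.92 CPM in replicates 1, 2 and 3. TNXB, an extracellular matrix gene, had 0.167 CPM against 3.50, 3.55 and 0.928 CPM. MYOCD, a coactivator of smooth and cardiac muscle genes, had 1.21 CPM against 21.5, 18.9 and 21.4 CPM. MYOCD thus differed from PAX6 in having no reduction in replicate 3. The profile rests on 4 libraries, and a prior count of 5 or leaving out replicate 3 kept 3 of the 5 names.

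**Figure D5:**
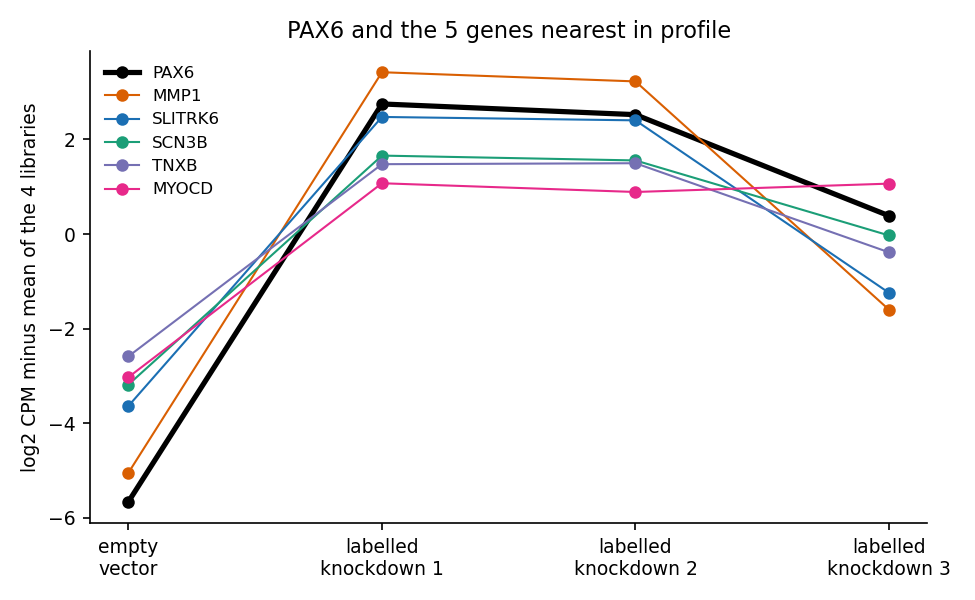
Log2 CPM minus its mean over the 4 libraries, for PAX6 (thick line) and the 5 genes nearest to it in profile; the libraries are on the x axis. PAX6 runs from -5.66 in the control to 2.75, 2.53 and 0.39 in replicates 1, 2 and 3, and all 5 other genes are lowest in the control.

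Markers of other cell types that such a culture could hold were read beside these results. Of the 8 neuronal markers, all past the minimum, 1 (MAP2) was called higher and 0 lower, beside 3.65% and 2.72% in the whole table. The list did not move as one. MAP2 had log2 differences of 1.38, 1.31 and 1.91 in replicates 1, 2 and 3, and TUBB3 of 0.22, 0.42 and 0.82. DCX had 1.29, 1.23 and -0.02, SYT1 1.22, 1.19 and 0.21, and ELAVL4 1.67, 1.53 and -2.70. STMN2, with 8 counts in the control, had 2.87, 2.68 and 0.56. RBFOX3 had -0.53, -0.47 and -1.42, and SNAP25 0.05, -0.02 and 0.08. The summed level of the 8 was 56.8 CPM in the control and 102.4, 99.4 and 73.4 CPM in replicates 1, 2 and 3. The 6 neural progenitor markers, which include PAX6, summed to 189.0 CPM against 334.7, 316.8 and 295.0 CPM. Most of this sum was NES, at 167.3 CPM against 291.5, 274.0 and 270.0 CPM, which was not called. FABP7 went the other way, at 0.833 CPM against 0.0321, 0.268 and 0.384 CPM, but at 20, 2, 16 and 12 counts it was below the minimum. SOX1, also below the minimum, had 2 counts in the control and 19, 18 and 2 in replicates 1, 2 and 3. SOX3, past the minimum, had log2 differences of 0.41, 0.49 and 0.06. Of the 3 progenitor markers past the minimum, PAX6 itself was the 1 called higher, and HES5 was at 0 in all 4 libraries. The 6 mesenchymal markers summed to 467.8 CPM against 527.5, 523.1 and 348.6 CPM, with none of the 5 past the minimum called in either direction. The 4 endodermal markers summed to 1.96 CPM against 5.16, 3.80 and 8.52 CPM, and 1 of them passed the minimum. The 4 trophoblast markers summed to 25.8 CPM against 49.6, 47.5 and 75.7 CPM, with CGB3 at 0 in all 4 libraries, and 2 passed the minimum. None of either list was called, and markers below the minimum could not be. Of the embryonal carcinoma markers, DNMT3B was called lower, at 794.7 CPM against 339.8, 350.4 and 349.4 CPM. L1TD1 lay just outside the rule, with log2 differences of -0.97, -0.98 and -1.06, while NANOG had 0.71, 0.70 and -0.63. The part of other cell types in the PAX values was not tested.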

How the data were processed

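The 4 libraries were made from rRNA-depleted total RNA with a KAPA kit that marks strand, per the labels' protocols. The authors deposited raw counts per gene, 1 table for each library. Per the submitters' processing notes, STAR 2.7.11b, featureCounts 2.0.6, DESeq2 and the hg38 (GRCh38) build were used; their roles, settings and annotation release are not given in the sources used here. Groups were taken from the sample titles. Of the 62696 identifiers, 58269 matched GENCODE 29, which gave coordinates, transcript lengths and the coding stretches. Upstream sequences came from RefSeq on GRCh38.p14.

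Counts were scaled with TMM factors in edgeR 4.0.16 (R 4.3.3), with a prior count of 2 for log2 CPM. The minimum level was 1 CPM, averaged first within and then over the 2 groups. A gene was called when all 3 labelled knockdown libraries differed 2-fold or more, and the same way, from the empty vector library. Since between 65.2% and 68.0% of nonzero counts were even, 95% intervals (exact Poisson, or Clopper-Pearson for ratios) were computed on counts divided by 2. For a gene at 0 in the control, the lower 95% limit of the ratio is given. The smaller the total, the wider the interval: 3 counts were 0.125 CPM for the empty vector and between 0.0482 and 0.0960 CPM in the others. edgeR's quasi-likelihood test and DESeq2 1.42.0 gave numbers of calls only. The methods were tested on simulated data.

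Members, lists and alternatives were chosen with earlier results of these data known. The genes named are the 9 members, their antisense transcripts and PAX6 neighbours, the 5 nearest profiles, and from each list the called genes or, where fewer than 2 were called, the 2 with the highest mean CPM; CRYAA, GCG, CD79A, SLC25A21, HES5, MAP2, RBFOX3, SNAP25, ELAVL4, DNMT3B and CGB3 were named after their values were seen. NES, FABP7, SOX1, SOX3, DCX, SYT1, STMN2, TUBB3, LIN28A, DPPA4 and L1TD1 were also named after their values were seen. Alternatives were other scalings, priors, minimums and folds, thinning, removal of a length trend (lowess, span 0.3) and leaving out each labelled knockdown library.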

Additional observations from a re-analysis of the deposited data

How the results depend on the processing

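The empty vector group has 1 library, so its spread is unknown and no alternative can leave it out. Of 42 named genes over 378 alternatives, 371 values kept the direction. The genes with a change of direction were EYA3, SIX4, NKX3-2 and RAG1, and PAX4, which became 0; none of the 16 called genes changed direction. PAX6 kept its call throughout, with a mean log2 difference between 6.24 (prior count of 5) and 9.54 (prior count of 0.5). Its mean over a control floor of 3 counts was 83.9-fold, or 41.9-fold over a floor of 6 counts. Both floors lie below the 0.307 CPM that 0 counts allow, so neither value is a lower limit. Of the members, 2 were called, 1 with a minimum CPM of 5, where 2 members entered, and 2 without replicate 3, then PAX5 and PAX6. Of the listed genes, 7 were called, 24 with a 1.5-fold rule and 9 to 18 when a labelled knockdown library was left out (18 without replicate 3). Of the 5 genes nearest to PAX6, 3 stayed with a prior count of 5 and 3 to 4 when a library was left out.

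Over all genes, 1012 were called, 580 higher and 432 lower. Leaving out a library gave 1095 to 2364 in all, 578 to 1425 higher and 517 to 939 lower, the highest each time without replicate 3. A minimum of 0.1 gave 2640, 1605 and 1035, a minimum of 5 gave 631, 377 and 254, and a 1.5-fold rule 3116, 1590 and 1526. Removal of the length trend gave 674 in all and 370 higher, and scaling by total counts split the calls into 734 higher and 312 lower. edgeR called 0 genes, DESeq2 271, and edgeR 17 to 11178 when a library was left out, the last without replicate 3. No paired analysis was possible because there is just 1 control library, with no replicate number. The cause was not tested for any of these changes.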

Other observations

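Some uncalled genes of the lists had patterns over the libraries like those of the members; they were chosen after their values were seen. SIX3, an eye field regulator, had 0 counts in the control library and 10, 10 and 18 in replicates 1, 2 and 3, below the minimum level. PROX1, a lens and neural factor among the reported PAX6 targets, had 119 counts in the control library. It had 1438, 1390 and 265 in replicates 1, 2 and 3, with log2 differences of 2.21, 2.22 and 0.77. DACH1, of the eye field network, had log2 differences of 1.84, 1.83 and 0.61. EOMES, a T-box factor among the reported PAX6 targets, was highest in replicate 3. It had 10 counts in the control library and 72, 50 and 234 in replicates 1, 2 and 3. LHX2, an eye field factor, was lower in replicates 1 and 2, with log2 differences of -1.62 and -1.70, and stood at 0.30 in replicate 3.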
